A study of Mus musculus with 12 samples.

Results

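The mitochondrial ribosomal protein genes were followed in cultured mouse fat cells that had received a let-7 microRNA. The members are the rows of the deposited count table whose Ensembl identifier maps to a symbol that starts with Mrps or Mrpl and a number, symbols marked as pseudogenes left out. By this rule 77 of the 15754 genes in the table are members, 29 named for the small subunit (Mrps) and 48 named for the large subunit (Mrpl). The annotation holds 83 matching symbols, of which 5 are pseudogenes and 1, Mrpl53, has no row in the count table.

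The study sequenced total RNA from primary white adipocytes of epididymal fat (eWAT), grown from the stromal vascular cells of wild-type male C57BL/6 mice that were 8 weeks old and ate chow. In every group the induction medium held dexamethasone and rosiglitazone (1 µM each), IBMX (250 µM) and insulin (850 nM), and later medium held only rosiglitazone and insulin. On day 4 the cells were reverse transfected with a negative control, a let-7d-5p mimic or a let-7e-5p mimic, and they were harvested on day 7. Each group has 4 libraries. Their identifiers form 2 series, replicates 1 and 2 of each group in series 1 and replicates 3 and 4 in series 2, and what separates the series is not given in the labels. The labels also do not tell whether replicates came from separate cultures or mice, so a p-value here describes the spread between libraries, which may be technical.

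Mitochondrial ribosomes translate the few messages of the mitochondrial genome, all of which encode parts of the respiratory chain and ATP synthase. The ribosomal RNAs of both subunits are encoded in mitochondrial DNA, while every protein of the ribosome is encoded in the nucleus, made in the cytosol and imported. Of the 77 members 46 are classed here as counterparts of a bacterial ribosomal protein and 30 as specific to the mitochondrial ribosome. The remaining 1, Mrps36, is now known as a component of the 2-oxoglutarate dehydrogenase complex. White fat cells depend on their mitochondria to build fat, to burn it and to differentiate.

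The transfected microRNAs share their seed, bases 2 to 8 of the mature strand, the stretch that mainly directs pairing with messages. The sequences from RefSeq (GRCm38.p6) are shown with the seed in capitals because the expected pairing site, CTACCTC, is read from it.
let-7d-5p: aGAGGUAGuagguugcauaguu
let-7e-5p: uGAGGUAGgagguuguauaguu
Counted from the 5′ end, let-7d differs from let-7e by A1U, U9G and C16U, all outside the seed.

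That pairing site was looked for in the longest 3′ UTR that GENCODE annotates for each gene. There 5 of 77 members (6.5%) held CTACCTC, against 10.5% of 13545 genes. Shorter matches, such as TACCTC, are not in these counts. Among the genes whose 3′ UTR length lay between 221 and 1972 bases, the quartiles of the members, 6.9% held it. Of the 5 members only Mrpl21 (316 bases) lies in that range, and the others have longer 3′ UTRs (2850 to 6651 bases). The 6.9% is thus not matched in length to the 6.5%. The site letters below show the seed match in capitals with 15 bases before and 1 after, since these are the only members with such a match.
Mrpl15: cttcaagcagagtggCTACCTCa
Mrpl17: taaaggtatggggcaCTACCTCc
Mrpl21: gagactcctctgtctCTACCTCg
Mrpl51: cccatcctcctgcctCTACCTCc
Mrps25: tgattgatgccatgaCTACCTCa
Of these 5, Mrpl17 was called lower with let-7d and the other 4 were not called with either mimic. Mrps12 and Mrps2, the members that changed with both mimics, have no match in the 3′ UTR or the coding sequence. The match is a description of letters and was not tested as a binding site.

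Depth ran from 15071299 to 33396316 counts per library, and 15703 to 15742 genes had a count above 0. Levels are counts-per-million values (CPM) after TMM scaling of library sizes. The mimics were checked on Hmga2, a textbook let-7 target, which fell in both comparisons (log2 fold change -0.84 with let-7d and -0.59 with let-7e, edgeR adjusted p = 4.73e-05 and 0.00105). The series differ far more than the groups: summed adipocyte markers (9 of 10 measured) were 22400 to 24600 CPM in series 1 and 5390 to 7610 CPM in series 2, and 12 macrophage markers 233 to 353 CPM and 26.9 to 147 CPM. Of 5 smooth muscle markers 4 were called higher in series 2 and 1, Myh11, lower (log2 -0.29, edgeR adjusted p = 2.94e-04), and none of 6 lymphocyte markers has a row in the table. In such bulk cultures fewer cells of one type and less RNA per cell cannot be told apart.

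With the let-7d mimic, Mrps12 rose and nearly all other members kept within a narrow band. Of the 77 members 2 rose (Mrps12, Mrpl33) and 2 fell (Mrps2, Mrpl17), which is 5.19%, while 16.2% of all genes were called (edgeR's quasi-likelihood test with a series term, Benjamini-Hochberg adjusted over all genes, called under 0.05, two-sided). At an unadjusted p under 0.05 stood 8 members (10.4%) and 29.7% of all genes. The median log2 fold change was -0.010 over the members and -0.0022 over all genes. With the let-7e mimic Mrps12 rose and Mrps2 fell, 2 members, against 9.5% of all genes called, and the median was -0.011 over the members and -0.0019 over all genes. Both comparisons use the same control libraries, so they are not independent.

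Mrps12 encodes the protein that lines the decoding centre of the small subunit, where codon and anticodon meet. Its control libraries gave 14.9 and 18.3 CPM in series 1 and 20.4 and 21.1 CPM in series 2. The let-7d libraries gave 29, 31.2, 35.7 and 33.3 CPM in replicates 1 to 4. The let-7e libraries gave 29.2, 28.7, 33.1 and 32.5 CPM. Every mimic library lay above every control library, across the series as well as within them.

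Mrps12 rose with let-7d by 0.80 ± 0.0658 on the log2 scale (SE, n = 4 libraries per group, 1.74-fold, edgeR adjusted p = 4.60e-06) and with let-7e by 0.73 ± 0.0654 (1.66-fold, edgeR adjusted p = 1.02e-05). By p-value it ranked 5 of 15754 genes with let-7d and 9 with let-7e, and by size of the rise 220 and 170. In series 1 the log2 fold changes were 0.88 with let-7d and 0.81 with let-7e, and in series 2 0.73 and 0.66, each called. The difference in response between the series was -0.14 with let-7d and -0.16 with let-7e and did not pass the test (edgeR adjusted p = 0.682 and 0.764). Between the mimics Mrps12 differed by 0.067, with a 95% interval from -0.066 to 0.20 (edgeR adjusted p = 0.791).

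**Figure D1:**
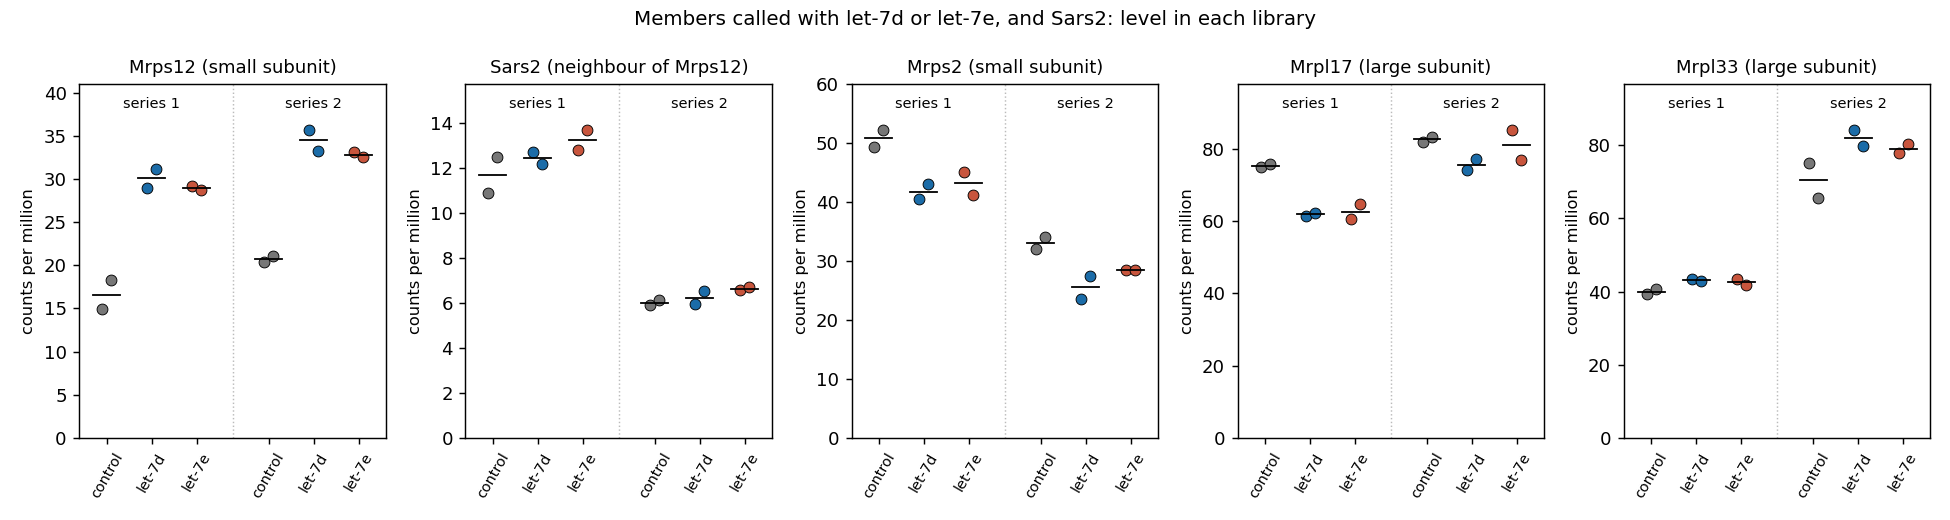
CPM (vertical axis, from 0) of Mrps12, its neighbour Sars2, Mrps2, Mrpl17 and Mrpl33 in each of the 12 libraries, by group and sample series; each point is 1 library and each bar the mean of 2. Mrps12 stands between 14.9 and 21.1 CPM in the controls and between 28.7 and 35.7 CPM with a mimic, while Sars2 follows the series.

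Against the other 76 members Mrps12 stood apart in size. The others ran from -0.32 to 0.17 with let-7d and from -0.23 to 0.14 with let-7e on the log2 scale, and Mrps12 lay 0.81 and 0.74 above their median. For 73 of the 77 members the 95% interval of the change lay within 0.32 of 0 (log2) with let-7d, and likewise for 73 with let-7e, as did the intervals of 45.9% and 50.4% of all genes. These shares depend on the width of the intervals as well as on the changes. The median SE was 0.0603 over the members and 0.0846 over all genes with let-7d, and 0.0600 and 0.0837 with let-7e. Mrps12 was the single member whose interval lay wholly more than 0.32 from 0, with each mimic. Its share of the small subunit counts (by CPM) was 1.52% to 1.96% in the controls and 2.74% to 3.12% with a mimic.

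Mrps12 lies on mouse chromosome 7 (28739641 to 28741820, minus strand, GRCm38.p6) and shares its promoter region with Sars2, the mitochondrial seryl-tRNA synthetase gene, which runs the other way. By RefSeq 146 bases lie between the start sites. The stretch between them and the first 25 bases of Mrps12 (chr7:28741797-28741967, minus strand, RefSeq) is shown because it serves both genes. Capitals mark CCGGAAG, the core letters bound by ETS factors, and GAGGTAG.
Mrps12 promoter: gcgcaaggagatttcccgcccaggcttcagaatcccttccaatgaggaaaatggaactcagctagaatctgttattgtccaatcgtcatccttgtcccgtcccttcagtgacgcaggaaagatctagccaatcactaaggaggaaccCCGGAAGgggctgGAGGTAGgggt
The letters GAGGTAG, which start 15 bases into Mrps12, were looked for after the sequence had been read. They are the letters of the let-7 seed itself, not of its pairing site, and stand on the gene's strand in 1.6% of 11240 promoter windows of 250 bases before to 50 after a start, those of Mrps11 and Mrps12 among the members. The Mrps12 transcript that GENCODE gives the longest 3′ UTR does not hold them in its 5′ UTR.

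Sars2 was not called with either mimic. Its control libraries gave 10.9, 12.5, 5.90 and 6.14 CPM, its let-7d libraries 12.7, 12.2, 5.94 and 6.54 CPM and its let-7e libraries 12.8, 13.7, 6.59 and 6.69 CPM. The let-7d libraries overlapped the controls in both series, and the let-7e libraries lay above them by a little. The log2 fold change was 0.074 ± 0.0812 with let-7d and 0.16 ± 0.0796 with let-7e (SE, edgeR adjusted p = 0.596 and 0.235), and the 95% intervals ran from -0.10 to 0.25 and from -0.0053 to 0.33, below those of Mrps12 (0.66 to 0.94 and 0.59 to 0.87). The exons of Mrps12 and Sars2 share no bases.

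Mrps2 (chromosome 2, 28468066 to 28471178), a small subunit protein that bacteria share, moved the other way. Its control libraries gave 49.3, 52.2, 32 and 34 CPM in replicates 1 to 4, its let-7d libraries 40.5, 43, 23.6 and 27.5 CPM and its let-7e libraries 45.1, 41.2, 28.5 and 28.4 CPM. Within each series all mimic libraries were below both controls, and across series the level set by the series was larger than the change. The log2 fold change was -0.32 ± 0.0590 with let-7d (edgeR adjusted p = 0.00157) and -0.22 ± 0.0582 with let-7e (edgeR adjusted p = 0.0245). The let-7e call was lost without control replicate 2 (0.0603), control replicate 4 (0.0589), let-7e replicate 2 (0.0962) or let-7e replicate 4 (0.0512), at log2 fold changes from -0.23 to -0.19.

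The large subunit genes Mrpl17 and Mrpl33 changed less, and passed the test with let-7d alone. Their difference between the mimics was -0.061 and 0.036 and did not pass (edgeR adjusted p = 0.781 and 0.874). Mrpl17 (chromosome 7, 105803206 to 105811099), a neighbour of the exit of the peptide tunnel in bacterial ribosomes, gave 74.9, 75.7, 81.8 and 83.3 CPM in the controls, 61.4, 62.3, 74 and 77 CPM with let-7d and 60.5, 64.7, 85.2 and 76.8 CPM with let-7e. The let-7d libraries were below both controls of their series, and a let-7e library of series 2 was above them. Mrpl17 stood at -0.20 ± 0.0558 with let-7d (edgeR adjusted p = 0.0204) and -0.14 ± 0.0554 with let-7e (0.127). Without control replicate 1 or 2 or let-7d replicate 1 or 2, its adjusted p with let-7d was between 0.0526 and 0.0596.

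Mrpl33 (chromosome 5, 31596935 to 31664384), a small protein of the bacterial type, gave 39.3, 40.6, 75.1 and 65.7 CPM in the controls, 43.3, 42.8, 84.2 and 79.8 CPM with let-7d and 43.4, 41.9, 77.8 and 80.2 CPM with let-7e. All mimic libraries were above the controls of their series. It stood at 0.17 ± 0.0514 with let-7d (edgeR adjusted p = 0.0344) and 0.13 ± 0.0511 with let-7e (0.121). Its let-7d call was lost in 6 of the 12 fits that left out a library (control replicates 1 and 4, let-7d replicates 1, 2, 3 and 4; adjusted p up to 0.109) and when only the let-7d and control libraries were fitted (0.0868).

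Among members that did not pass the test, the highest values with let-7d were those of Mrps21 (0.17), Mrpl2, which sits by the peptidyl transferase centre (0.15), Mrpl36 (0.13) and Mrps6 (0.12). The lowest were those of Mrpl37 (-0.13), Mrpl41 (-0.12), Mrpl51 (-0.10) and Mrpl12, the protein of the stalk that recruits translation factors (-0.10). With let-7e the highest were Mrps18b (0.14), Mrpl33 (0.13), Mrps16 (0.11) and Mrpl2 (0.11), and the lowest Mrpl46 of the central protuberance (-0.23, edgeR adjusted p = 0.0817), Mrps36 (-0.18), Mrpl17 (-0.14) and Mrpl41 (-0.12). Without control replicate 4 Mrpl46 was called with let-7e (-0.32, edgeR adjusted p = 0.00827) and Mrpl51 with let-7d (-0.17, edgeR adjusted p = 0.0486). Without control replicate 2 Mrpl2 was called with let-7d (0.20, edgeR adjusted p = 0.0424), and without let-7e replicate 3 Mrpl17 was called with let-7e (-0.19, edgeR adjusted p = 0.0396). Mrpl46 shares 12.2% of its exon bases with Mrps11, which starts from the opposite strand, and Mrps18b shares 30.5% with Gm16279, also on the opposite strand. The strand setting of the counting is not given in the sources used here.

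**Figure D2:**
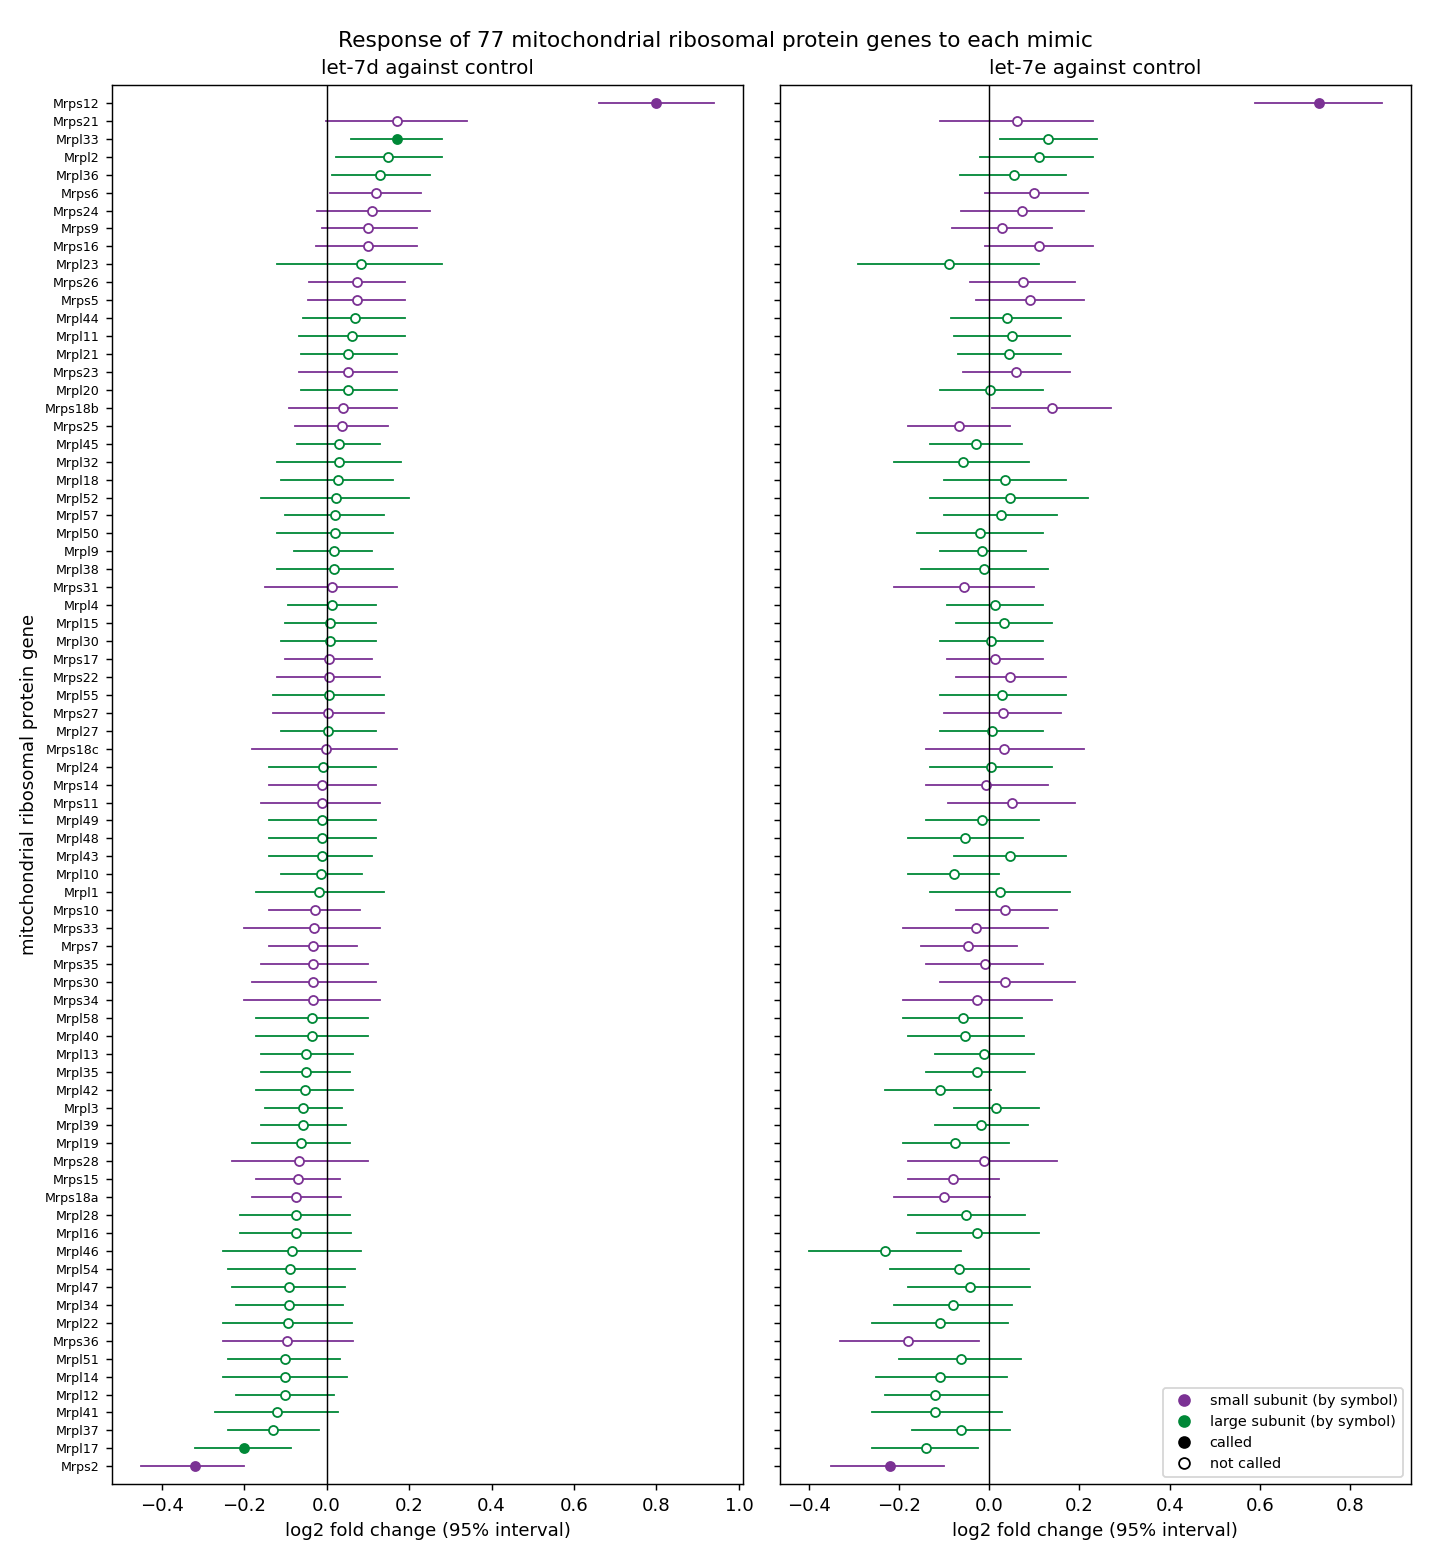
Log2 fold change (horizontal axis) of all 77 members with let-7d (left) and let-7e (right), 1 row per gene in the order of the let-7d value; lines are 95% intervals of the edgeR fit, filled points passed the test and colour gives the subunit of the symbol. Mrps12 stands alone at 0.80 and 0.73, and the other 76 members lie between -0.32 and 0.17.

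No member passed the test between the mimics. Between let-7d and let-7e edgeR called 0 of 77 members, DESeq2 and limma-voom 0, and 0 stood at an unadjusted p under 0.05, while 0.152% of all genes were called and 9.31% stood at an unadjusted p under 0.05. The differences ran from -0.10 to 0.17 on the log2 scale with a median SE of 0.0595.

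Libraries were also compared without a model. With let-7d, 4 members had both mimic libraries above both controls in each series (Mrps12, Mrpl33, Mrps16, Mrps6) and 4 had them below (Mrps2, Mrpl17, Mrpl35, Mrpl39), 8 of 77 against 23.8% of all genes. With let-7e it was 3 above (Mrps12, Mrpl33, Mrps18b) and 4 below (Mrps2, Mrpl10, Mrps18a, Mrps36) against 19.1% of all genes. Mrps12 and Mrpl33 above and Mrps2 below were shared by both mimics. Among all 15754 genes 748 above and 1086 below were shared in the same way, and both mimics were set against the same controls.

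The subunits were compared next. With let-7d the median log2 fold change was 0.0040 over the 29 small subunit genes and -0.012 over the 48 large subunit genes, a difference of 0.016. With let-7e it was 0.031 and -0.020, a difference of 0.051. A like difference was taken in single libraries, from the median shifts against the control mean of their series. Its SD between libraries of 1 group and series was 0.0139. That SD is of single libraries and is not the error of the fitted differences. The let-7d difference was 0.024 in series 1 alone and 0.012 in series 2 alone, and the let-7e difference was 0.055 and 0.014. Moving Mrps18a and Mrps30 to the large subunit, where their proteins sit, and leaving out Mrps36 gave 0.018 and 0.052, and leaving out Mrps12 gave 0.013 and 0.050.

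Measured by summed level, the ratio of small to large subunit CPM was 0.484 and 0.490 in the series 1 controls, 0.511 and 0.512 with let-7d and 0.521 and 0.506 with let-7e. In series 2 it was 0.456 in both controls, 0.463 and 0.468 with let-7d and 0.466 and 0.464 with let-7e. The mimic libraries were above the controls in each series. Without Mrps12 the ratios were 0.477 and 0.481 in the series 1 controls against 0.491 to 0.506 with a mimic, and 0.447 in both series 2 controls against 0.448 to 0.454. No test was made over the sums.

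**Figure D3:**
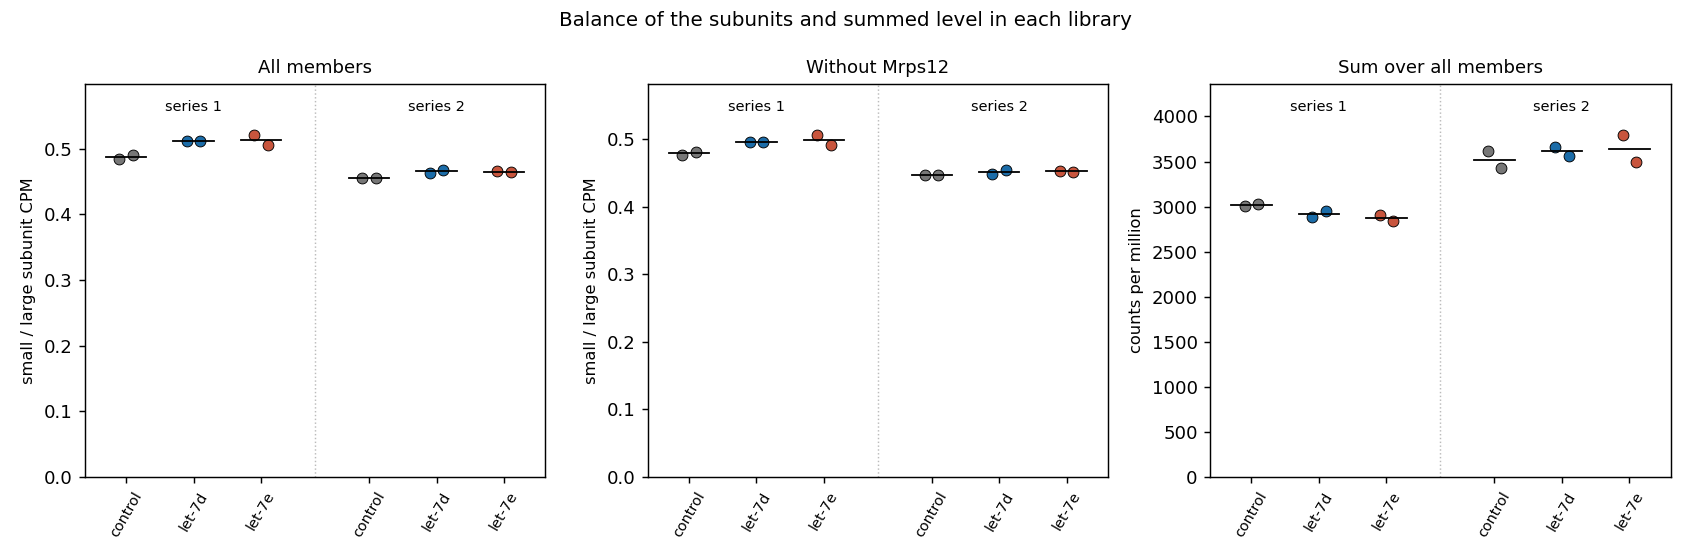
Ratio of summed small to summed large subunit CPM with all members (left) and without Mrps12 (middle), and the summed CPM of all members (right), by group and series; each point is 1 library, bars are means of 2 and every vertical axis starts at 0. The ratio runs from 0.456 to 0.490 in the controls, and the summed level follows the series.

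The median change had opposite signs in the series. Over large subunit genes with let-7d it was -0.038 in series 1 and 0.015 in series 2, and with let-7e -0.077 and 0.033, while small subunit genes stood at -0.013 and 0.027 with let-7d and at -0.022 and 0.047 with let-7e. In series 1, 4 members were called with let-7d (Mrps12 up; Mrpl54, Mrpl17 and Mrps2 down; 10.9% of all genes) and 2 with let-7e (Mrps12 up, Mrpl17 down; 7.12% of all genes). In series 2 the calls were 2 with let-7d (Mrps12 up, Mrps2 down; 8.56% of all genes) and 1 with let-7e (Mrps12; 2.48% of all genes).

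The test of the difference in response between the series called no member with edgeR, with either mimic (0.241% of all genes with let-7d and 0.00635% with let-7e), and limma-voom called 0 as well. DESeq2 called 1 with let-7d, Mrpl54, and 0 with let-7e. At an unadjusted p under 0.05 stood 8 members with let-7d (10.4%, against 13.6% of all genes) and 10 with let-7e (13%, against 8.87% of all genes). Mrpl54, a protein specific to mitochondria, came nearest with let-7d. Its controls gave 47.7 and 43.5 CPM and its let-7d libraries 34.4 and 38.2 CPM in series 1, and 72.4 and 71 CPM against 76.3 and 79.1 CPM in series 2. The response thus went from -0.33 to 0.12, a difference of 0.44 (edgeR adjusted p = 0.0688), and edgeR called it without control replicate 2.

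The series themselves differed in most members. Series 2 was compared with series 1 over all groups: 55 members were higher and 13 lower, 68 of 77, against 81.7% of all genes called and 41.7% called higher. The median log2 fold change was 0.32 over the members (0.21 small, 0.43 large) and 0.028 over all genes. Summed over members the level was 2844 to 3028 CPM in series 1 and 3429 to 3795 CPM in series 2, with no overlap, or 0.277% to 0.293% and 0.353% to 0.381% of all counts. The summed adipocyte, macrophage and smooth muscle markers given above move with the series too, and their part in this difference was not tested.

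The highest members of series 2 were Mrpl52 (1.39), Mrpl13 (0.98), Mrpl54 (0.89), Mrps28 (0.89), Mrpl33 (0.88) and Mrpl35 (0.81), each called. Mrpl52, specific to mitochondria, ran from 38.4 to 50 CPM in series 1 and from 101 to 125 CPM in series 2. The lowest were Mrps6 (-1.02), Mrpl38 of the central protuberance (-0.75), Mrps2 (-0.64), Mrpl12 (-0.64), Mrps34 (-0.53) and Mrps35 (-0.42). Mrps6 ran from 50.8 to 59.4 CPM in series 1 and from 25.3 to 29.7 CPM in series 2, and Mrpl12 from 103 to 126 CPM and from 68.1 to 78.1 CPM. Mrps34 shares 63.4% of its exon bases with Mapk8ip3 on the other strand, so its counts are uncertain. Mrps6 shares 10.4% with Slc5a3 and 19.9% with Gm49711, both on its own strand, so its counts are uncertain too. Mrps12 was 0.23 higher in series 2 (edgeR adjusted p = 7.30e-04), less than its change with either mimic. Across the members the series difference and the exon length had a Spearman correlation of -0.052 (77 genes of the same libraries), against -0.26 across 15736 genes.

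**Figure D4:**
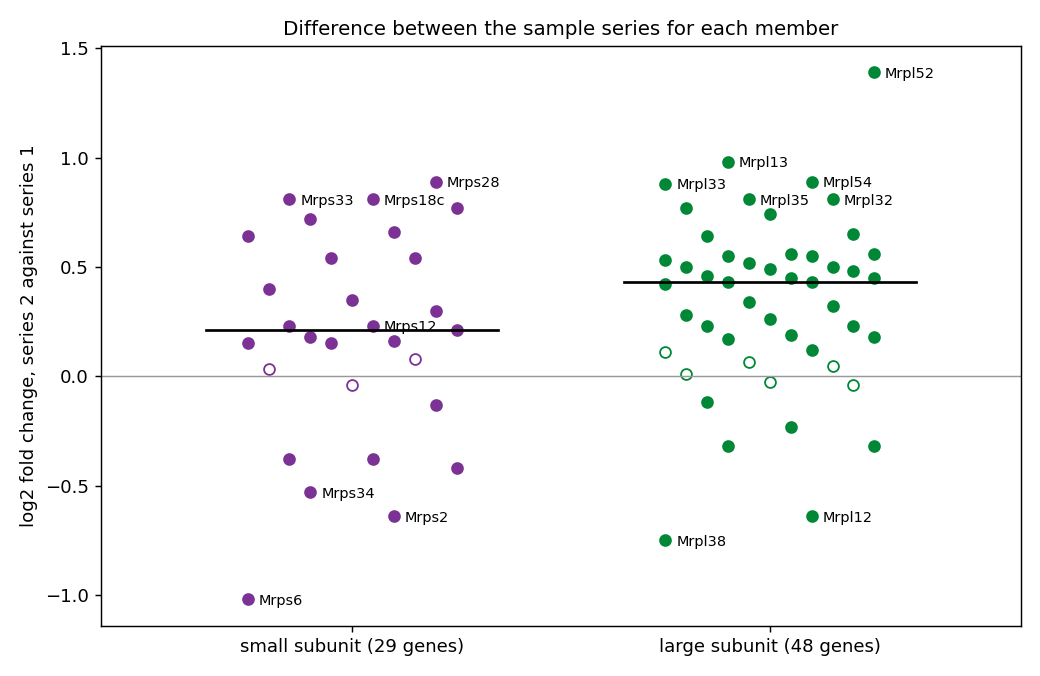
Log2 fold change of series 2 against series 1 (vertical axis) for the 29 small and 48 large subunit genes; filled points passed the edgeR test, bars are medians (0.21 and 0.43) and the horizontal spread has no meaning. The values run from -1.02 for Mrps6 to 1.39 for Mrpl52.

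Per kilobase of exon, the members stood at a median of 16.5 CPM, against 4.03 for all genes. The highest were Mrpl54 (69.9), Mrpl52 (68.7), Mrps21 (65.7) and Mrpl12 (61.2 CPM per kilobase). This order pools the series, and the order within them differs: Mrpl12 was the highest member in series 1 (74.6, with Mrpl52 at 37.9) and Mrpl52 in series 2 (99.4, with Mrpl12 at 47.8 CPM per kilobase). Over both series the lowest were Mrpl23 (1.81), Mrps35 (2.85), Mrps30 (3.63) and Mrps25 (4.69). Mrps12 ranked 23 of 77, at 26.2 CPM per kilobase. Exon length here covers every annotated exon of a gene, so genes with long rare exons, such as Mrps35 at 8631 bases, read low. Mrps25 shares 69.8% of its exon bases with Nr2c2 on the other strand, and 14 members share at least 10% with another gene of the table.

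The promoters of the members were searched for short letters on both strands, in RefSeq windows that 68 members have. The ETS letters CCGGAAG stood in 25 of 68 members (36.8%) and in 18.8% of 11240 genes. The letters GCATGCGC of NRF1, a transcription factor of nuclear genes for mitochondria, stood in 8 members (11.8%) and 5.6% of genes, and the letters AAGATGGCG of YY1 in 8 members (11.8%) and 3.2% of genes. Of the 77 members 30 have a protein-coding gene of the table that starts within 1 kilobase in the opposite direction. Mrpl46 and Mrps11 are each counted through the other. The share over all genes was not counted, so the 30 is not shown to be particular to the members.

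The ribosomal RNAs of the mitochondrial ribosome fell with both mimics. For mt-Rnr1, the small subunit RNA, the controls gave 558, 635, 305 and 227 CPM, let-7d 425, 454, 232 and 233 CPM and let-7e 453, 450, 248 and 228 CPM. The mimic libraries were below the controls in series 1 and overlapped them in series 2. The log2 fold change was -0.32 with let-7d and -0.28 with let-7e (edgeR adjusted p = 0.0133 and 0.0376). For mt-Rnr2, the large subunit RNA, the controls gave 2720, 2960, 886 and 771 CPM, let-7d 2540, 2350, 662 and 666 CPM and let-7e 2360, 2240, 779 and 710 CPM, and the log2 fold change was -0.27 and -0.23 (0.0123 and 0.0400). Here too a let-7e library of series 2 lay among the controls. Within series 1 and 2 the changes of mt-Rnr1 were -0.44 and -0.20 with let-7d and -0.40 and -0.16 with let-7e, and those of mt-Rnr2 -0.22 and -0.32 and then -0.31 and -0.15.

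Single libraries decided the let-7e calls of both RNAs: without control replicate 2 the adjusted p was 0.128 for mt-Rnr1 and 0.0940 for mt-Rnr2, without control replicate 3 0.106 and 0.110, and without any one of let-7e replicates 1, 2 and 4 it was between 0.0922 and 0.150. Without control replicate 1 that of mt-Rnr1 was 0.0673, without let-7d replicate 2 that of mt-Rnr2 was 0.0550, and without let-7d replicate 1 the let-7d call of mt-Rnr1 was lost (0.0520). Both RNAs were lower in series 2, with log2 fold changes of -1.0 and -1.76, while the protein genes were mostly higher. How ribosomal RNA was treated in library making is not given in the sources used here.

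**Figure D5:**
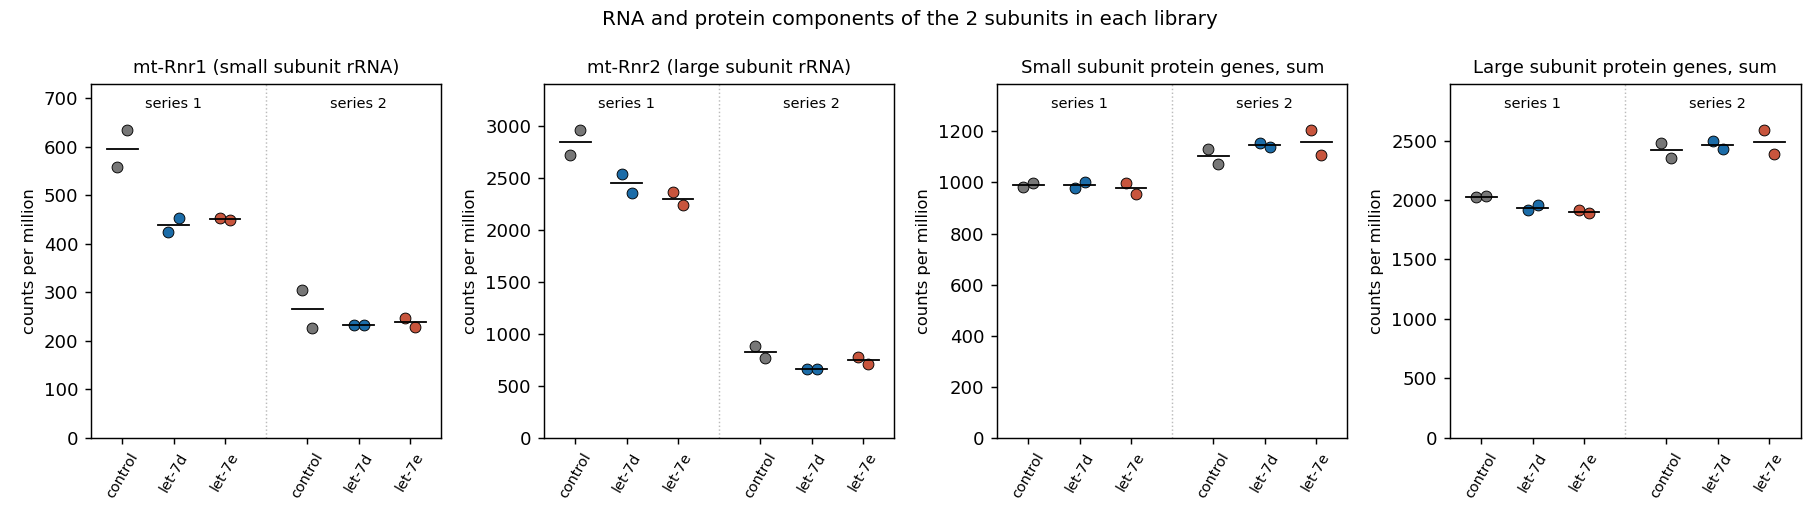
CPM (vertical axes, from 0) of mt-Rnr1 and mt-Rnr2 and of the summed small and large subunit protein genes, by group and series; each point is 1 library and bars are means of 2. The RNAs are lower and the protein sums higher in series 2 than in series 1.

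Other genes of mitochondrial translation are set beside the 16.2% of all genes called with let-7d and the 9.5% called with let-7e. Of 5 ribosomal proteins with other names (Dap3, Ptcd3, Gadd45gip1, Aurkaip1, Chchd1) edgeR, DESeq2 and limma-voom called 0 with either mimic, 0 stood at an unadjusted p under 0.05, and Ptcd3 stood at -0.11 and Dap3 at -0.10 with let-7d. Of the 13 genes of the translation factor list 0 were called with let-7d by any of these tools (2 at an unadjusted p under 0.05) and 1 fell with let-7e, Oxa1l, which is no translation factor itself but inserts new proteins into the inner membrane (-0.23, edgeR adjusted p = 0.00843). Of 20 genes that charge mitochondrial tRNAs (synthetases and the amidotransferase genes Gatb, Gatc and Qrsl1) 0 were called with let-7d (5 unadjusted) and 1 fell with let-7e, Lars2 (-0.38, edgeR adjusted p = 0.0174), while DESeq2 called Iars2 as well. Of 27 assembly factors 0 were called with let-7d (4 unadjusted) and 1 fell with let-7e, Tfb1m, which methylates the small subunit RNA (-0.52, edgeR adjusted p = 0.0278). Each of these stood below 0 with let-7d as well, at -0.14, -0.23 and -0.32.

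Of 10 genes of mitochondrial transcription and replication the 3 tools called 0 with either mimic (1 unadjusted with let-7d, 0 with let-7e), with Polg at 0.14 and Polg2 at -0.19 with let-7d. Of 7 measured messages of the mitochondrial genome they called 0 (0 unadjusted), with mt-Nd1 at -0.076 and mt-Nd6 at 0.079. Of 10 nuclear regulators 2 fell with let-7d, Nrf1 (-0.21, edgeR adjusted p = 0.0318) and Myc, a known let-7 target (-0.27, edgeR adjusted p = 0.0136), and 0 were called with let-7e (0 unadjusted), where they stood at -0.13 and -0.11. Among markers of other cells, Acta2, Myh11 and Des of 5 smooth muscle genes fell with let-7d and the first 2 with let-7e, Pdgfra, Ly6a and Dpp4 of 7 preadipocyte genes rose with each mimic, Lpl of 9 adipocyte genes rose with each, and Lyz2 and Cd68 of 12 macrophage genes rose with let-7d by edgeR, of which DESeq2 called 1, Lyz2, and limma-voom 0. The median log2 fold change of the adipocyte genes was -0.12 for let-7d and -0.058 for let-7e, and that of the macrophage genes 0.28 and -0.078. Summed smooth muscle markers were 3150 to 4190 CPM in the series 1 controls and 2620 to 2970 CPM with a mimic, and 6430 to 6740 CPM and 5070 to 5550 CPM in series 2. Summed preadipocyte markers were 1180 to 1190 CPM in the series 1 controls and 1340 to 1440 CPM with a mimic, and 1130 to 1440 CPM and 1400 to 1630 CPM in series 2. Summed macrophage markers were 333 to 342 CPM in the series 1 controls, 306 to 327 CPM with let-7d and 233 to 353 CPM with let-7e, and in series 2 they were 26.9 to 38.2, 63.3 to 147 and 48 to 74.9 CPM. Summed adipocyte markers were 22400 to 24100 CPM in the series 1 controls, 23500 to 24400 CPM with let-7d and 23100 to 24600 CPM with let-7e, and in series 2 they were 5390 to 7610, 5830 to 6720 and 6200 to 7060 CPM. Their part in the changes of Mrps12 and Mrps2 was not tested.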

How the data were processed

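The deposited table holds whole-number read counts per Ensembl gene for 12 libraries, not normalized, as the authors made them; its name says that genes of low CPM were removed. STAR and GRCm38.p6 are named per the submitters' processing notes. Neither the STAR version nor the read counter and its strand setting is given in the sources used here. The second deposited table (RPKM) was not used, since it did not match the counts. Of 15754 identifiers 15736 matched a symbol of GENCODE vM21. Counts were fitted in R 4.3.3 with edgeR 4.0.16 (TMM, quasi-likelihood) as group plus series, with 8 residual degrees of freedom; filterByExpr removed 0 genes. Values within a series and differences between series come from a model with 1 mean per group and series. An SE of the edgeR fit was worked back from the test, as the size of the log2 fold change over the square root of the F statistic. An interval is the estimate ± 2.12 SE, with the same 16 degrees of freedom for every gene. DESeq2 1.42.0 and limma-voom (limma 3.58.1) were alternatives. On data simulated once for let-7d against control (15687 genes) the test recovered 67% of genes changed 1.25-fold and 100% of those changed 1.75-fold. Of the calls 6.7% were false. At each fold 100 genes were changed, in the let-7d libraries only, while 2555 genes were called in the data. The changed genes were drawn only from those above a set mean CPM, so the rates do not cover genes of low level.

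The members and gene lists were chosen with earlier results of these data known. Named are Mrps12, Sars2, called members, the 4 largest other changes each way per mimic, the 6 largest each way between series, the 4 highest and lowest levels, and called genes of the other lists or the 2 of smallest p. Replicate numbers carry the series: correlations of deviations from group means were 0.93 to 0.97, and from group and series means -0.19 to 0.44. No libraries of 1 group and series agreed within counting noise (chi-square per degree of freedom 2.31 to 9.92).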

Additional observations from a re-analysis of the deposited data

Results flagged for a closer look

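Mrps36, a member by symbol that belongs to the 2-oxoglutarate dehydrogenase complex, had 1 let-7d library apart from the others: replicates 1 to 4 gave 11.7, 11.7, 11.8 and 13.2 CPM, and the gap of replicate 4 to its nearest neighbour was 0.895 of the range of the group (above Dixon's 95% critical value for 4 libraries). It was 1 of 93 groups of 4 looked at, and chance gives about 1 in 20 where the 4 libraries share a level. Each group of 4 spans both series. Where the series differ, the ratio is small and a stray library would not show, so the 1 in 20 does not hold there. Mrps36 was not called with either mimic.

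Measured library by library against the mean of the controls of the same series, the median of the small subunit genes was below 0 in both let-7d libraries of series 1 (-0.0043 and -0.012) and above 0 in both of series 2 (0.051 and 0.028), a difference of 0.048 between the series means. For the large subunit genes it was -0.060 and -0.037 in series 1 and 0.024 and 0.0079 in series 2, a difference of 0.064. These differences between the series were not tested, and the control libraries of series 2 differed from each other by as much (0.033 and -0.033 for the small, 0.036 and -0.036 for the large subunit genes).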

How the results depend on the processing

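Mrps12 was called with both mimics in 19 of 20 alternatives and ran from 0.73 to 0.83 with let-7d and from 0.66 to 0.76 with let-7e. Without the series term it stood at 0.79 and 0.72 (edgeR adjusted p = 0.0824 and 0.185), and 0 members were called with either mimic. In that fit the difference between the series counts as spread, and its part in the lost calls was not tested. With the replicate block in place of the series term the counts were 4 members with let-7d, 2 with let-7e and 0 between the mimics, so it changed no call of a member; Mrps12 then stood at 0.79 and 0.73. Leaving out 1 library gave 2 to 4 members with let-7d and 1 to 3 with let-7e, 66 to 68 between the series, and 0 to 1 for the let-7d response between series (1, Mrpl54, without control replicate 2, and 1 with DESeq2). The main fit gave 4 with let-7d, 2 with let-7e and 68 between the series, beside 16.2%, 9.5% and 81.7% of all genes. No share of all genes is set beside the refits above, so their counts describe only how stable the calls were. In series 2 alone, an alternative added after seeing the data, the calls were 2 for let-7d (8.56% of all genes) and 1 for let-7e (2.48%).

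The difference of subunit medians ran from 0.013 to 0.032 with let-7d and from 0.027 to 0.053 with let-7e when 1 library was left out, and was 0.014 in series 2 alone with let-7e. Signs of the mimic and series changes were followed only for the named genes, each in the comparison that named it. There they turned only for members that were not called. Mrps30 (main values -0.033 with let-7d, 0.036 with let-7e, -0.039 between series) ran from -0.10 to 0.0086, from -0.025 to 0.056 and from -0.079 to 0.0064 without 1 library. It was 0.11 with let-7d in series 1 alone. In series 2 alone Mrpl41 was 0.0052 (let-7d) and 0.024 (let-7e) and Mrpl51 0.017 (let-7d). Over all 77 members, 26 stood above 0 with let-7d in series 1 and 46 in series 2, and with let-7e 21 and 52. More members than those listed thus differed in sign between the series. The difference of the let-7d response of Mrps12 between the series ran from -0.25 to 0.011 without 1 library. Depth and 4 libraries per group limit a change of a single member to a median SE of 0.0603 with let-7d, and the RPKM table was not used as an alternative.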
